A study of Mus musculus with 18 samples.

Results

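Myeloid progenitors (MP) that carried inducible copies of Oct4, Sox2, Klf4 and c-Myc were cultured for 2 or 4 days, and the libraries titled D (with doxycycline) were compared with the libraries titled N (without it) within each day. Of the 18 libraries of the series, 4 make up this comparison, namely MP 2N, MP 2D, MP 4N and MP 4D. The source of all of them was C57BL/6 mice derived wholly from induced pluripotent cells, with the 4 factor genes inserted in the genome, so N and D cells carry the same transgenes. No label gives the promoter in front of the factors or the number of mice behind a library. Each library held RNA of 25 hand-picked cells, copied with a polyT primer and amplified by PCR, and each condition is 1 library. Uncultured MP (day 0, no doxycycline) give the starting level, and the same 4 conditions in long-term and short-term hematopoietic stem cells (LT-HSC and ST-HSC) give the comparison with other blood cells. The labels conflict in 1 point: the doxycycline field reads "Yes" in all 6 N libraries, while the titles and the series' design describe N as culture without the drug, and the titles were followed.

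Myeloid progenitors are the bone marrow cells from which granulocytes and monocytes, and in part erythroid cells and platelets, arise. They already make the serine proteases and the peroxidase of the primary (azurophil) granules, they depend on cytokines that signal through the GM-CSF and IL-3 receptor chains, and their identity is held by transcription factors such as PU.1 and the C/EBP family. The 4 factors are transcription factors that can bring body cells to pluripotency, a process in which the genes of the starting cell are lost before the pluripotency genes come on.

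The values are FPKM, fragment counts scaled to transcript length and library size, so levels can be set side by side between genes. The 5 MP libraries had totals of 707877 to 766868 FPKM and 10676 to 11167 genes at 1 FPKM or more. The labelled cell type was checked in uncultured MP: Mpo stood at 13224 FPKM, Kit at 18.7 FPKM and Cd34 at 85.7 FPKM, and Ly6a, the Sca-1 antigen of stem cells, at 0.89 FPKM. S100a8 of mature neutrophils (3458 FPKM) and Itga2b of megakaryocytes (139.5 FPKM) were present in it too. The uncultured LT-HSC library, used in no D against N difference, held Elane at 13554 FPKM and Mpo at 7525 FPKM, near the level of uncultured MP, against 44.7 FPKM (Elane) and 765 FPKM (Mpo) in uncultured ST-HSC. The number of reads behind the values is unknown, and an entry of 0 is written as listed at 0. Differences are D minus N of log2(FPKM + 1), which understates the change of low genes. Measured genes are those with at least 10 FPKM in at least 1 of the 4 MP libraries. A gene that is low in N is thus measured only if it is high in D, and the reverse, which favours that direction in counts. Agreement at both days means a difference of at least 2 (4-fold on that scale) in the same direction on day 2 and on day 4, which is a description with no test. The test was limma over the 12 cultured blood libraries, with a block for each pair of cell type and day and a separate D term for each cell type. It takes the 2 days as repeats, and its threshold was an adjusted p of 0.05. Its errors are standard errors with n = 2 MP pairs and 3 residual degrees of freedom pooled over the 3 cell types. In the text "rose" and "fell" are used of genes that passed this test. Values are given in the order day 2, day 4.

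In the D libraries granule, oxidase, cytokine receptor and leukocyte genes of the myeloid progenitor stood far below N at both days. Of 17 measured neural genes 13 stood at least 4-fold above N at both days. Of 8656 measured genes, 821 (9.48%) agreed at both days: 349 (4.03%) were at least 4-fold higher in D at both days and 472 (5.45%) were at least 4-fold lower. On day 2 alone the counts were 649 higher (7.5%) and 699 lower (8.08%), and on day 4 they were 662 higher (7.65%) and 896 lower (10.4%). Differences had the same sign at both days for 5773 genes (66.7%). Across genes, which are not independent replicates, the differences of day 2 and day 4 had a Pearson r of 0.67 and a Spearman coefficient of 0.53. In limma 793 of 12254 genes passed (6.47%), 335 higher (2.73%) and 458 lower (3.74%), and 618 of the 793 were also 4-fold at both days. These shares over all genes are those to set beside each list count below. At the edge of the 4-fold rule stood Dand5 (differences 3.08 and 2.004) and Rhoj (−2.14 and −2.005) just inside it and Tmem163 (1.998 and 4.75) and Oaf (−4.15 and −1.999) just outside it. These counts rest on having both pairs: without the day 2 pair 184 genes passed, and without the day 4 pair 24.

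**Figure D1:**
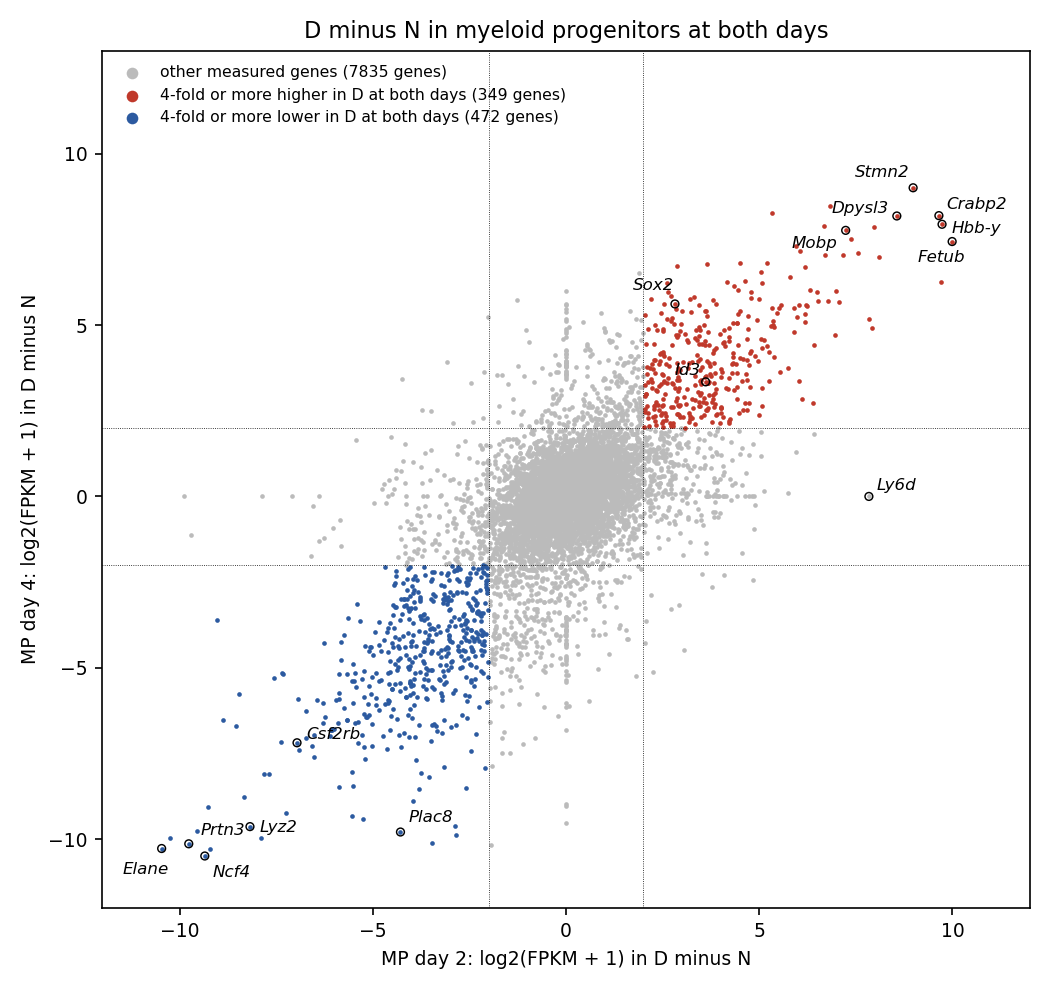
Each point is 1 of the 8656 measured genes, with the D minus N difference of log2(FPKM + 1) in MP on day 2 (x axis) and on day 4 (y axis). Red marks the 349 genes at least 4-fold higher in D at both days, blue the 472 at least 4-fold lower, grey the rest; dotted lines mark a difference of 2, and Ly6d is an example of a gene with a difference on day 2 and none on day 4.

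Genes that were higher in D were mostly low in MP before culture. They were chosen for a level in D above N, which favours genes that are low without the drug, so their shares below are a description. Their median level was 0.43 FPKM in uncultured MP, 0.37 and 0 FPKM in the N libraries and 22.3 and 25.0 FPKM in the D libraries. In uncultured MP 163 of the 349 were listed at 0 (46.7%, against 5.44% of all measured genes) and 52 stood at 10 FPKM or more (14.9%, against 73.1%). For the genes that were lower in D the median was 25.9 FPKM in uncultured MP, 31.2 and 39.8 FPKM in N, and 1.07 and 0 FPKM in D. Of the 472, 339 stood at 10 FPKM or more in uncultured MP (71.8%, against 73.1% of all measured genes), and 174 were listed at 0 in both D libraries. Of the lower genes 326 had the larger difference on day 4, against 179 of the 349 higher genes.

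The factors themselves were read first. Sox2, the only one of the 4 that was 4-fold higher at both days, stood at 1.36 and 0 FPKM in N and at 15.6 and 48.0 FPKM in D, a rise of 4.22 ± 0.79 in log2 (adjusted p = 0.0224). It was at 1.91 FPKM in uncultured MP, and both D libraries were above all 3 others. The call was lost without the day 2 pair (adjusted p = 0.0506), without the day 4 pair (0.281), without the LT-HSC pairs (0.0526) and with 0.1 added in place of 1 (0.0924). Pou5f1, which encodes Oct4, was listed at 0 in every MP library but 4D, where it stood at 2.34 FPKM, under the level at which genes were tested. Myc stood at 319 and 102 FPKM in N and at 45.5 and 133 FPKM in D, lower on day 2 and of the same order on day 4 (difference −1.20, adjusted p = 0.417). Klf4 stood at 3.76 and 22.6 FPKM in N and at 6.93 and 9.55 FPKM in D, with groups that overlap (adjusted p = 0.929). No label says whether reads of the inserted copies are part of these values.

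Of the 27 pluripotency genes examined, 2 were measured, and Nanog, Esrrb, Zfp42 and Sall4 were not among them. Klf5, a Krüppel-like factor of early embryo and epithelium, was listed at 0 in uncultured MP and in both N libraries and stood at 11.9 and 13.7 FPKM in D (adjusted p = 0.0187). Dnmt3l, a partner of the de novo DNA methyltransferases, stood at 11.7 and 1.95 FPKM in N and was listed at 0 in D (adjusted p = 0.104). Of the measured pluripotency genes Klf5 was therefore the one that rose by day 4.

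The steepest falls were those of the primary granule enzymes, which are among the most abundant transcripts of a myeloid progenitor. Prtn3, proteinase 3, stood at 15215 and 13400 FPKM in N and at 16.5 and 10.9 FPKM in D, a fall of −9.95 ± 0.40 (adjusted p = 1.34e-04). Elane, neutrophil elastase, stood at 7339 and 5551 FPKM in N and at 4.19 and 3.50 FPKM in D, a fall of −10.37 ± 0.65 (adjusted p = 7.51e-04). Ctsg, cathepsin G, stood at 2709 and 1889 FPKM in N and at 1.23 and 0.89 FPKM in D (−10.10 ± 0.59, adjusted p = 5.65e-04). These 3 proteases are stored together and are released into the phagosome. Mpo, the myeloperoxidase that makes hypochlorous acid from hydrogen peroxide, stood at 7849 and 8538 FPKM in N and at 9.51 and 8.91 FPKM in D (−9.65 ± 0.79, adjusted p = 0.00134). In uncultured MP the 4 genes stood at 21209 (Prtn3), 19235 (Elane), 4362 (Ctsg) and 13224 FPKM (Mpo), above both N libraries in each case. Each D library was therefore far below each of the other 3 MP libraries for all 4 genes.

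All 12 members of the primary granule list fell, and 11 were 4-fold lower at both days. The median difference of the list was −7.90 and −9.59, beside 0.03 and 0.10 over all measured genes. Its summed level was 68219 FPKM in uncultured MP, 44540 and 36396 FPKM in N and 444 and 67.0 FPKM in D. Ms4a3, a membrane protein of granulocyte and monocyte progenitors, stood at 1662 and 1239 FPKM in N, at 1.78 FPKM in 2D and was listed at 0 in 4D (adjusted p = 9.14e-04). Cst7, the protease inhibitor cystatin F, stood at 614 and 532 FPKM in N and was listed at 0 in both D libraries (adjusted p = 0.0101). Srgn, the serglycin core protein that packs granule proteases, went from 4369 and 1922 FPKM in N to 113 and 1.80 FPKM in D (−7.34 ± 0.96, adjusted p = 0.00568). The exception to the 4-fold rule was Ctsc, the dipeptidyl peptidase that activates the granule proteases, at 174 and 486 FPKM in N against 47.5 and 30.5 FPKM in D (−2.90 ± 0.58, adjusted p = 0.0276). Of the 12, 8 also passed without the day 2 pair and 4 without the day 4 pair. In libraries of pooled cells, fewer cells that make a transcript and less of it per cell cannot be told apart.

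**Figure D2:**
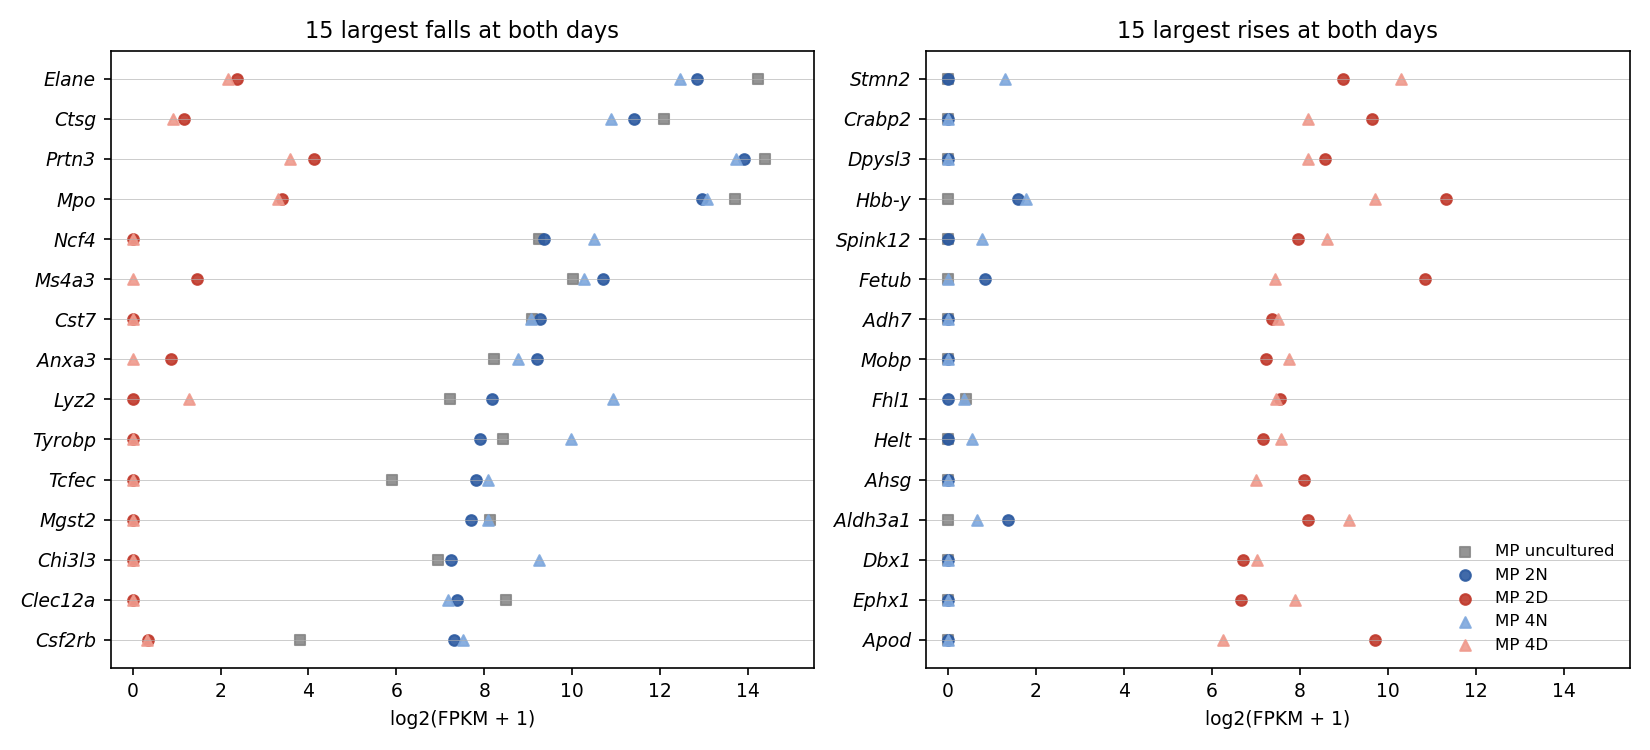
Level of each gene, log2(FPKM + 1) on the x axis, in the 5 MP libraries for the 15 genes with the largest agreeing fall (left) and the 15 with the largest agreeing rise (right), 1 point a library. The D points lie at or near 0 on the left, with Prtn3 at 16.5 and 10.9 FPKM the highest of them, and far to the right of the N and uncultured points on the right.

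The 250 bases before the annotated start of the 4 leading granule genes are shown because these genes fell together; they are RefSeq's, on build GRCm38.p6, 5′ to 3′ on the gene's strand. Capitals mark GAGGAA, the core letters bound by PU.1 and other ETS factors, searched on both strands. The windows are chr10:79879417-79879666 on the plus strand (Prtn3), chr10:79886062-79886311 on the plus strand (Elane), chr14:56102575-56102824 on the minus strand (Ctsg) and chr11:87793534-87793783 on the plus strand (Mpo).
Prtn3: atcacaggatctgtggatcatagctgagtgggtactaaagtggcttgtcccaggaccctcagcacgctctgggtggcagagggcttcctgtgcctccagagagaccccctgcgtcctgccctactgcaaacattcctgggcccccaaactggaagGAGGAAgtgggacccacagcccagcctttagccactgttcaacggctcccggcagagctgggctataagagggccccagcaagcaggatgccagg
Elane: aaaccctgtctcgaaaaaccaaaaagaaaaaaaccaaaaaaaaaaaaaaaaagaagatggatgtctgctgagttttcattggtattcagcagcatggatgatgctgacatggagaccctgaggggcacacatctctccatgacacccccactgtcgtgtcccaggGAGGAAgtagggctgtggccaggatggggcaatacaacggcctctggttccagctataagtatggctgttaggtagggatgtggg
Ctsg: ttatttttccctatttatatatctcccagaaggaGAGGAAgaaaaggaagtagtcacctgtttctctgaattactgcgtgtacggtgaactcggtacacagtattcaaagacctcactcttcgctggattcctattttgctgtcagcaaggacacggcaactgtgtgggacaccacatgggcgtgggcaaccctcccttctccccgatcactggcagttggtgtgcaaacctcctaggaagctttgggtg
Mpo: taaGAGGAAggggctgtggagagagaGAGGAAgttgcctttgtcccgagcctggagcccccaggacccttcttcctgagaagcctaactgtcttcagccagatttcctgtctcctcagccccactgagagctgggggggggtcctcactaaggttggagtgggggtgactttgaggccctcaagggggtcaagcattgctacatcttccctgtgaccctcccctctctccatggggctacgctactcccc
All 4 windows hold the letters GAGGAA, once in Prtn3 (first base 95 before the start), Elane (85) and Ctsg (216) and at 2 places in Mpo (247 and 224). Of 27025 genes with a window of this length, 25.9% hold them. The letters TTGCNNAA of C/EBP factors, searched on both strands, were in none of the 4 windows and in 10.8% of all windows. A match is a description of the letters and not of binding.

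Prtn3 and Elane lie next to each other on chromosome 10, and neither of the tested genes found near them passed. Genes whose current symbol is absent from the deposited values were passed over, so the genes named need not be the nearest. Ptbp1, an RNA splicing regulator on one side, stood at 417 and 253 FPKM in N and at 217 and 185 FPKM in D (adjusted p = 0.163). Med16, a subunit of the Mediator complex on the other side, stood at 41.1 and 32.3 FPKM in N and at 21.7 and 32.3 FPKM in D (adjusted p = 0.575). Cfd, complement factor D, which lies between Elane and Med16, was at 1.39 FPKM in 2N and listed at 0 in the other MP libraries.

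Enzymes and receptors of phagocytosis fell as well. Ncf4, the p40phox subunit of the phagocyte NADPH oxidase, stood at 652 and 1435 FPKM in N and was listed at 0 in both D libraries (adjusted p = 3.32e-04). Tyrobp, the adaptor DAP12 of activating myeloid receptors, stood at 237 and 1006 FPKM in N and was listed at 0 in D (adjusted p = 0.00138). Fcgr3, an activating receptor for IgG, stood at 63.1 and 110 FPKM in N and was listed at 0 in D (adjusted p = 0.00274). These 3 genes were picked for large differences, so the separation of N and D follows from the choice. Of the 10 measured genes of the oxidase and Fc receptor list, 7 were 4-fold lower at both days, and 7 fell while none rose, against 5 without the day 2 pair and 1 without the day 4 pair. Fcer1g, the common Fc receptor gamma chain, kept a level above 0 on day 2, at 229 and 779 FPKM in N, 30.3 FPKM in 2D and 0 in 4D (adjusted p = 0.0360).

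Receptors through which progenitors receive their growth signals fell as well. Csf2rb, the beta chain shared by the receptors for GM-CSF, IL-3 and IL-5, stood at 157 and 181 FPKM in N and at 0.27 and 0.25 FPKM in D (−7.07 ± 0.54, adjusted p = 0.00113). Csf2rb2, its IL-3 specific neighbour and close copy, stood at 77.3 and 64.0 FPKM in N and was listed at 0 in D (adjusted p = 0.00337), though reads of near-identical copies can be split between them. Csf2ra, the GM-CSF receptor alpha chain, stood at 58.6 and 58.0 FPKM in N and at 0.82 and 0.55 FPKM in D (−5.14 ± 0.61, adjusted p = 0.00421). For Csf2rb and Csf2rb2 the N libraries were above uncultured MP (12.9 and 6.06 FPKM), and D lay below all 3. Csf1r, the receptor for M-CSF, stood at 14.5 and 76.9 FPKM in N and at 0.0019 and 0.15 FPKM in D (adjusted p = 0.0206). Csf3r, the G-CSF receptor, stood at 12 and 21.8 FPKM in N and was listed at 0 in D (adjusted p = 0.0180). Of 17 measured cytokine receptors 8 were 4-fold lower at both days, and of 19 tested 9 fell and none rose. Without the day 2 pair 2 of them passed, and without the day 4 pair 0. Kit, the receptor for stem cell factor, stood at 14.6 and 14 FPKM in N and at 2.61 and 4.29 FPKM in D and did not pass (adjusted p = 0.0791).

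Downstream of these receptors, 3 of 20 tested members of the JAK-STAT list fell, beside 3.74% of all tested genes. The median difference of its 17 measured members was −0.85 and −1.92, beside 0.03 and 0.10 over all measured genes. Cish, a feedback inhibitor that STAT5 turns on, stood at 130 and 280 FPKM in N and at 1.95 and 1.86 FPKM in D (−6.04 ± 0.85, adjusted p = 0.00743). Pim1, a kinase that cytokines induce, stood at 31.7 and 60.7 FPKM in N and at 4.44 and 4.09 FPKM in D (−3.09 ± 0.61, adjusted p = 0.0267). Stat5a stood at 29.6 and 20.8 FPKM in N and at 7.67 and 0.26 FPKM in D (adjusted p = 0.0342). These 3 were the only falls among 20 tested members, with no rise, and 1 and 0 passed without the day 2 and the day 4 pair. Stat3 stood at 28.6 and 40.8 FPKM in N and at 50.4 and 42.8 FPKM in D (adjusted p = 0.721).

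Of the 26 tested transcription factors of myeloid and erythroid fate, 11 fell and none rose, and 13 of 22 measured were 4-fold lower at both days. The median difference was −3.76 and −3.26. Cebpe, the C/EBP factor of granule maturation, stood at 163 and 34.2 FPKM in N and was listed at 0 in D (adjusted p = 0.0115). Gfi1, a repressor needed for neutrophil development, stood at 172 and 94.7 FPKM in N and at 7.59 and 4.35 FPKM in D (−4.25 ± 0.48, adjusted p = 0.00389). Myb, required by early blood progenitors, stood at 89.2 and 26.4 FPKM in N and at 6.09 and 0.29 FPKM in D (−4.04 ± 0.46, adjusted p = 0.00384). All of these were low in D by day 2. Tcfec, a relative of Mitf that is active in macrophages, stood at 224 and 272 FPKM in N and was listed at 0 in D (adjusted p = 0.00113).

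The gene for PU.1, called Sfpi1 in the files, was still present in 2D. It stood at 419 FPKM in uncultured MP, at 548 and 940 FPKM in N, at 75.7 FPKM in 2D and was listed at 0 in 4D. Both D libraries were below the other 3, and the difference did not pass (adjusted p = 0.0551). Cebpa, the C/EBP factor that starts the granulocyte lineage, stood at 47.5 and 23 FPKM in N and at 2.36 and 6.65 FPKM in D (adjusted p = 0.141). Lmo2 and Lyl1, partners in a complex of early blood cells, both fell. Lmo2 went from 279 and 130 FPKM in N to 15.6 FPKM in 2D and 0 in 4D (adjusted p = 0.0212), and Lyl1 from 65.6 and 39.9 FPKM to 1.42 FPKM in 2D and 0 in 4D (adjusted p = 0.00464). Runx1, which marks all blood stem and progenitor cells, stood at 16.7 and 17.2 FPKM in N and at 8.08 and 1.99 FPKM in D (adjusted p = 0.159). Cbfb, its partner, stood at 61.1 and 42.4 FPKM in N and at 65.5 and 32.1 FPKM in D (adjusted p = 0.877), and Tal1 stood at 19.8 and 23.7 FPKM in N and 22.0 and 6.46 FPKM in D (adjusted p = 0.451). Members that fell and members that missed the threshold thus stood side by side in this list. Without the day 2 pair 3 of its members passed, and without the day 4 pair 0.

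**Figure D3:**
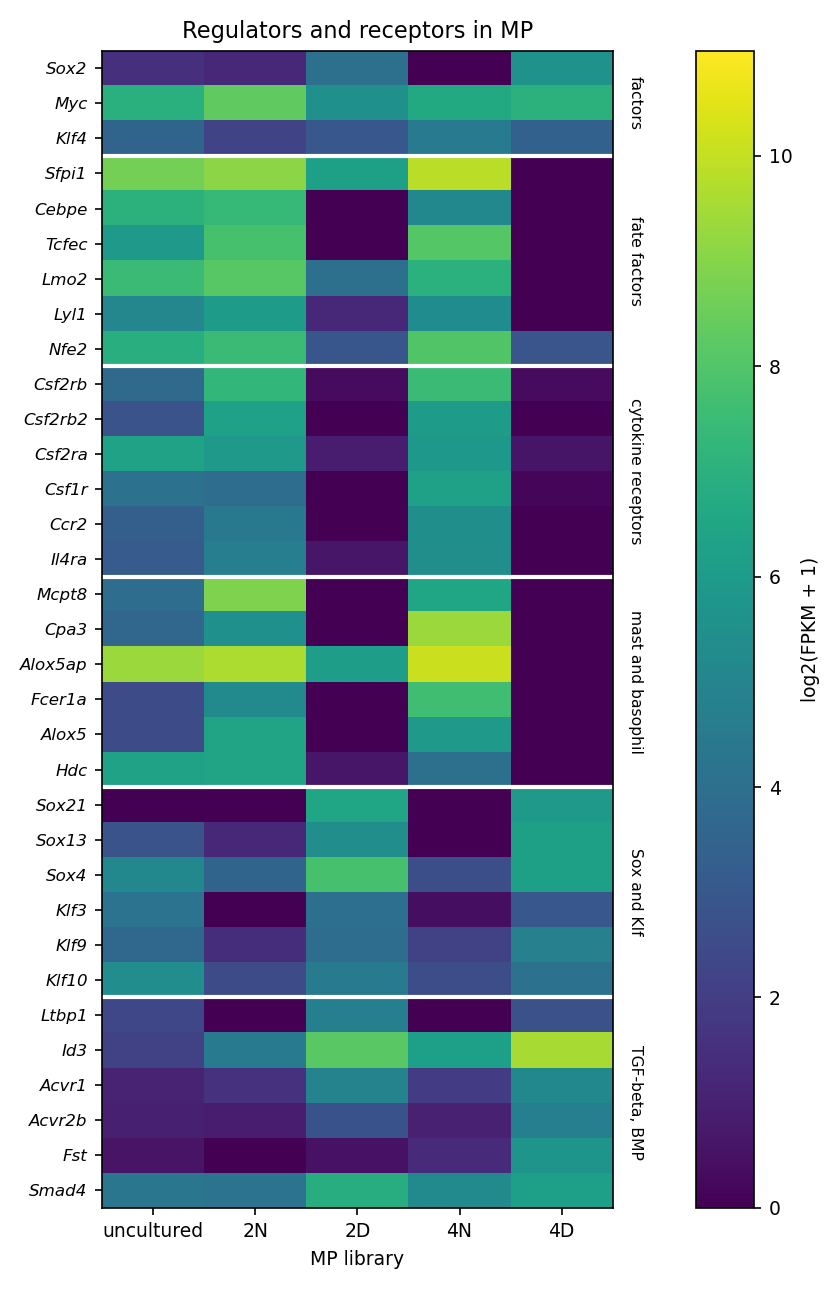
Heat map of log2(FPKM + 1) (color bar) for the factors, members of the fate factor, cytokine receptor, mast cell and basophil, Sox and Klf, and TGF-beta and BMP lists (rows) in the 5 MP libraries (columns). Fate factors, receptors and mast cell genes are darker in 2D and 4D than in the N columns, with Sfpi1 at 75.7 FPKM and Alox5ap at 71.6 FPKM in 2D, and Sox21, Sox13, Sox4 and Id3 are brighter in both D columns than in the N columns.

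Genes that nearly all leukocytes share were lower too. Of 32 tested pan-leukocyte genes 17 fell and none rose, with a median difference of −2.86 on day 2 and −5.86 on day 4 over the 29 measured. Coro1a, an actin regulator of leukocytes, stood at 1954 and 3038 FPKM in N and at 124 and 5.40 FPKM in D (−6.43 ± 1.04, adjusted p = 0.0130). Cd52, a small surface glycoprotein, stood at 49.7 and 91.2 FPKM in N and was listed at 0 in both D libraries (adjusted p = 0.00231). Ptprc, which encodes the common leukocyte antigen CD45, stood at 26.4 and 25.7 FPKM in N, at 6.70 FPKM in 2D and was listed at 0 in 4D (adjusted p = 0.0504). Arhgdib, an inhibitor of small GTPases in blood cells, showed the same order with 666 and 1140 FPKM in N, 173 FPKM in 2D and 0 in 4D (adjusted p = 0.0827). Day 2 values above 0 followed by 0 on day 4 thus recurred in Sfpi1, Fcer1g, Ptprc and Arhgdib. Cd44, an adhesion receptor, did not follow, at 23.6 and 23.5 FPKM in N and 51.3 and 32.2 FPKM in D (adjusted p = 0.327). Without the day 2 pair 12 of the 32 passed, and without the day 4 pair 0.

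The N libraries differed from each other in markers of more mature cells, and these move with the falls. Late granule and calprotectin genes summed to 7341 FPKM in 2N and 2797 FPKM in 4N, against 12.5 and 1.45 FPKM in D and 7962 FPKM in uncultured MP. Camp, a cathelicidin of late granules, stood at 2780 FPKM in 2N and 11.1 FPKM in 4N, and Ngp, another late granule protein, at 1676 and 1.20 FPKM. In D these stood at 4.34 (Camp) and 1.0 FPKM (Ngp) on day 2 and were listed at 0 on day 4, and neither passed (adjusted p = 0.0691 for Camp and 0.171 for Ngp). Lyz2, lysozyme, went the other way over time in N, at 289 and 1942 FPKM, against 0 and 1.45 FPKM in D (−8.91 ± 0.65, adjusted p = 0.00107). Of 15 tested late granule genes 7 fell and none rose, against 2 with 0.1 added, 1 without the day 2 pair and 1 without the day 4 pair. S100a8, a subunit of calprotectin, stood at 805 and 131 FPKM in N, at 6.56 FPKM in 2D and was listed at 0 in 4D (adjusted p = 0.0314).

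Mast cell and basophil genes summed to 1795 FPKM in 2N and 4602 FPKM in 4N, to 72.1 and 1.38 FPKM in D and to 772 FPKM in uncultured MP. The mast cell proteases Cma1 and Tpsab1 stood at 737 and 1183 FPKM in 4N and were listed at 0 in uncultured MP, 2N and 2D. Gzmb, a granzyme, was at 525 FPKM in 4N and listed at 0 in the other 4 MP libraries. Mcpt8, a basophil protease, stood at 469 and 91.1 FPKM in N and was listed at 0 in D (adjusted p = 0.00221), and Cpa3, the carboxypeptidase of mast cells and basophils, stood at 45.2 and 644 FPKM in N and was listed at 0 in D (adjusted p = 0.00716). Of 12 tested members 7 fell and none rose, against 6 without the day 2 pair and 1 without the day 4 pair. The part of these more mature cell types in the falls of the other blood genes was not tested.

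Macrophage and dendritic cell markers were lower in D in part. Of 16 tested 5 fell and none rose, against 1 without the day 2 pair and 0 without the day 4 pair. Among the 5 was Emr1, the macrophage antigen F4/80, at 8.01 and 43.8 FPKM in N and 0 in D (adjusted p = 0.0185). Ccl9, a chemokine of myeloid cells, went from 482 and 358 FPKM in N to 7.18 FPKM in 2D and 0 in 4D (adjusted p = 0.00567). Lgals3, galectin 3, did not follow them, at 524 and 2510 FPKM in N and 915 and 679 FPKM in D (adjusted p = 0.723). Of 4 tested lymphoid markers 1 fell, beside 3.74% of all tested genes. It was Cd79b, a signalling chain of the B cell receptor, at 32.3 and 20.2 FPKM in N and listed at 0 in D (adjusted p = 0.00555). Ly6d was at 228 FPKM in 2D, listed at 0 in the other 4 MP libraries, and did not pass (adjusted p = 0.328). Among megakaryocyte genes Itga2b, Pf4 and Vwf stood at 139.5, 91.1 and 64.7 FPKM in uncultured MP and at 28.1, 0 and 0 FPKM in 2N, so they were already low in culture without the drug. Of 10 tested megakaryocyte and platelet genes 1 fell, and of all tested genes 3.74% fell.

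Among the rises, the top of the ranking was Stmn2, a tubulin-binding protein of growing nerve cell processes. It stood at 0 and 1.47 FPKM in N and at 504 and 1267 FPKM in D, a rise of 8.99 ± 0.46 (adjusted p = 3.32e-04). Dpysl3, a growth cone protein, was listed at 0 in uncultured MP and both N libraries and stood at 376 and 289 FPKM in D (adjusted p = 0.00107). Mobp, which oligodendrocytes place in myelin, had entries of 0 in the same 3 libraries and stood at 150 and 216 FPKM in D (adjusted p = 0.00104). These 3 were picked for large differences between D and N, so their separation follows from the choice. Helt, a repressor of the developing midbrain, stood at 0 and 0.45 FPKM in N and at 142 and 190 FPKM in D (7.10 ± 0.57, adjusted p = 0.00121).

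Of the 40 members of the neural list 17 were measured, 13 of these were 4-fold higher at both days, and 13 of 20 tested rose while none fell. The median difference of the measured members was 5.35 and 5.0. The summed level of the 40 members was 35.7 FPKM in uncultured MP, 18.7 and 16.2 FPKM in N and 1877 and 2364 FPKM in D. With so little in N, most measured members passed the 10 FPKM filter through D. That favours rises in these counts and in the median, so they are a description and no test of the list. The 13 belong to different nerve and glial programs. Tubb3, the beta-tubulin of neurons, was listed at 0 in N and stood at 133 and 50.1 FPKM in D (adjusted p = 0.0119). Dll1, a ligand of the Notch receptors, was listed at 0 in N and stood at 230 and 35.3 FPKM in D (adjusted p = 0.00412). Npy, the neuropeptide Y, was listed at 0 in N and in uncultured MP and stood at 71.6 and 102 FPKM in D (adjusted p = 0.00274). Nes, Neurod1, Neurog2, Dcx and Syt1, members of the same list, were not measured. Pax6 and Fabp7 stood at 21.7 and 16.8 FPKM in 4D and at or near 0 in the other MP libraries, and neither passed (adjusted p = 0.617 and 0.370). Without the day 2 pair 5 members passed, and without the day 4 pair 3.

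**Figure D4:**
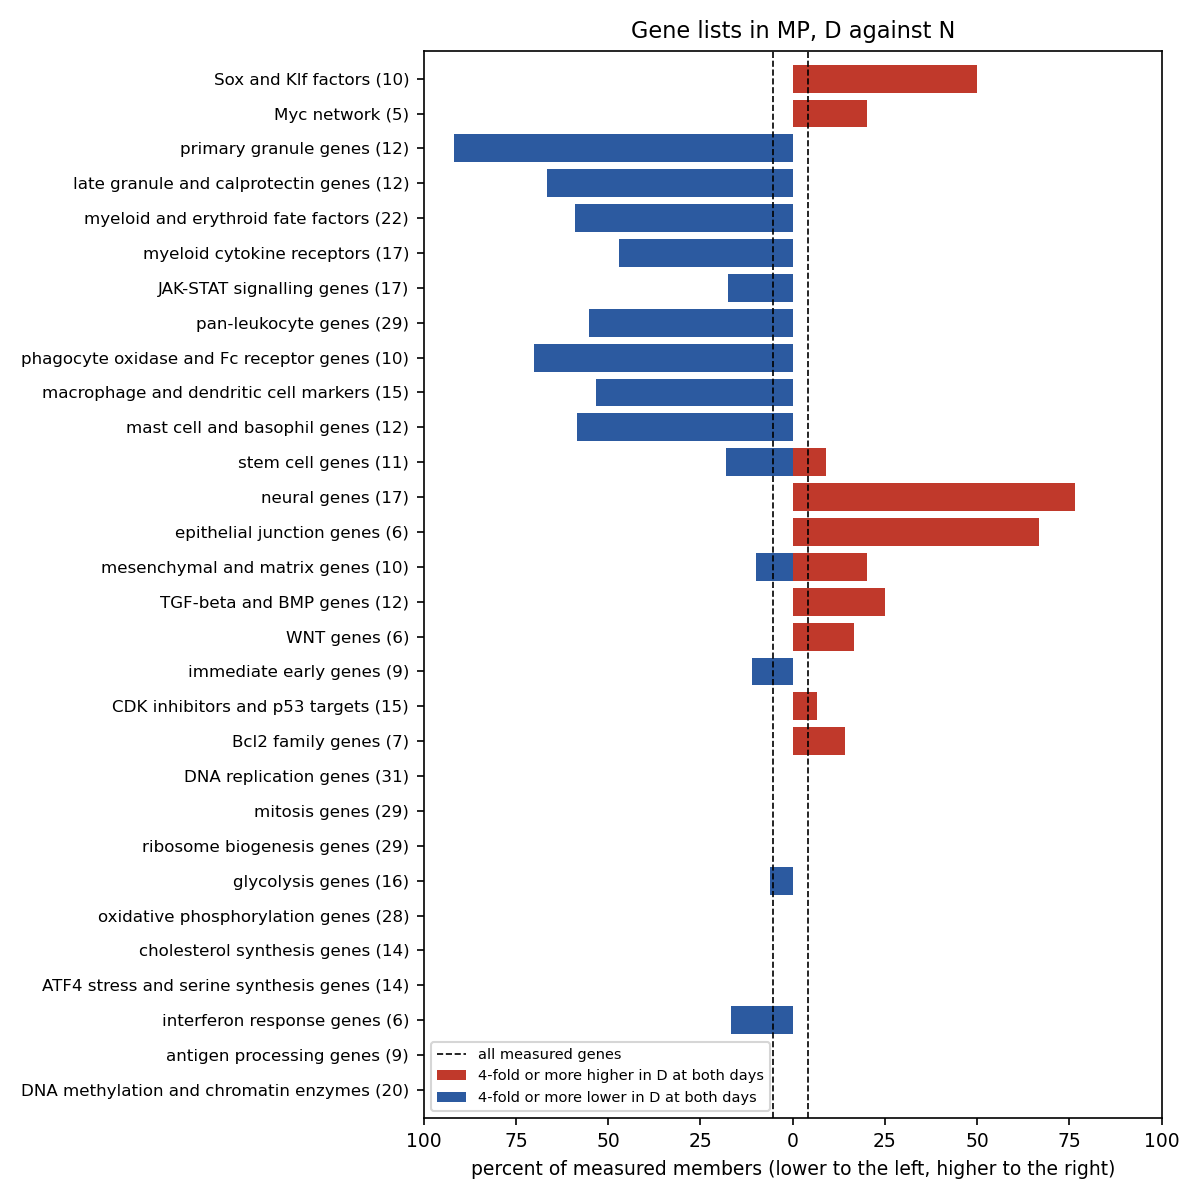
Share of the measured members of each list that were at least 4-fold higher in D at both days (red, to the right) or lower (blue, to the left), for lists with 5 or more measured members (number in brackets); dashed lines mark 4.03% and 5.45% over all measured genes. Blood lists extend to the left, led by 11 of 12 primary granule genes, neural genes to the right with 13 of 17, and replication, mitosis and ribosome lists hold none.

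Genes outside the neural list completed the top 15. Crabp2, which carries retinoic acid to its nuclear receptors, was listed at 0 in uncultured MP and N and stood at 802 and 291 FPKM in D (adjusted p = 0.00549). Adh7, an alcohol dehydrogenase that acts on retinol, was listed at 0 in the same libraries and stood at 164 and 181 FPKM in D (adjusted p = 0.00107). Aldh3a1, an aldehyde dehydrogenase, stood at 1.56 and 0.58 FPKM in N and at 290 and 555 FPKM in D (7.65 ± 1.76, adjusted p = 0.0444). Developmental, structural and detoxifying genes followed. Dbx1, a homeobox gene of the neural tube, was listed at 0 in N and stood at 103 and 130 FPKM in D (adjusted p = 0.00510). Fhl1, a LIM domain protein of muscle, stood at 0 and 0.29 FPKM in N and 186 and 175 FPKM in D (7.32 ± 0.58, adjusted p = 0.00120). Ephx1, the microsomal epoxide hydrolase, was listed at 0 in N and stood at 100 and 236 FPKM in D (adjusted p = 0.00412). Spink12, a protease inhibitor of the Kazal type, stood at 0 and 0.70 FPKM in N and at 248 and 391 FPKM in D (7.90 ± 0.78, adjusted p = 0.00274). Apod, apolipoprotein D, was high on day 2 above all, at 832 and 75.5 FPKM in D and 0 in N (adjusted p = 0.00613).

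Hbb-y, the embryonic beta-like globin of the yolk sac, stood at 2.01 and 2.41 FPKM in N and at 2556 and 836 FPKM in D (8.83 ± 1.74, adjusted p = 0.0267). It was the only one of 5 tested erythroid genes that rose, and its call was lost with 0.1 added in place of 1. The adult erythroid genes Hbb-b2 and Alas2 were listed at 0 in all 4 cultured MP libraries. Tfrc, the transferrin receptor, stood at 91.9 and 44.1 FPKM in N and at 119 and 63.6 FPKM in D (adjusted p = 0.610). Gata1, the leading erythroid factor, stood at 16.8 and 8.06 FPKM in N and was listed at 0 in D (adjusted p = 0.125). The embryonic globin thus stood high in libraries in which Gata1, Hbb-b2 and Alas2 were listed at 0.

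Fetub and Ahsg, the fetuins that the liver secretes into blood, are neighbours on chromosome 16. Fetub stood at 0.80 and 0 FPKM in N and at 1833 and 172 FPKM in D (8.71 ± 0.89, adjusted p = 0.00274). Ahsg was listed at 0 in uncultured MP and N and stood at 272 and 127 FPKM in D (adjusted p = 0.00138). The genes beside them on one side, Hrg, Kng2 and Kng1, which the liver also secretes, were listed at 0 in all 5 MP libraries. On the other side the gene directly beside Ahsg, Dnajb11, a chaperone of the endoplasmic reticulum, did not rise. It stood at 314 and 327 FPKM in N and at 189 and 187 FPKM in D (adjusted p = 0.213). Beyond Dnajb11, Tbccd1 stood at 11.4 and 14.6 FPKM in N and at 90.3 and 41.5 FPKM in D (2.17 ± 0.50, adjusted p = 0.0447), so it rose. Other genes of the liver-type list did not come on with them: Afp, alpha-fetoprotein, stood at 19.4 and 0.51 FPKM in N and 2.48 and 0.45 FPKM in D, and Alb and Apoa1 were not measured. The members of the list that rose were Fetub, Ahsg and Adh7. Adh7 is the alcohol dehydrogenase described above and not a secreted liver protein.

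Some genes of the same families as the factors were higher in D as well. Over all genes, 4.03% of those measured were 4-fold higher at both days and 2.73% of those tested rose. Of 10 measured Sox and Klf genes 5 were 4-fold higher at both days and none lower, and 3 of 14 tested rose, against 2 without the day 2 pair and 0 without the day 4 pair. Sox21, a relative of Sox2, was listed at 0 in uncultured MP and N and stood at 88.3 and 61.1 FPKM in D (adjusted p = 0.00206). Sox13 stood at 1.43 and 0 FPKM in N and at 42.5 and 76.0 FPKM in D (5.21 ± 0.68, adjusted p = 0.00567). Sox4 stood at 10.5 and 5.30 FPKM in N and at 225 and 76.1 FPKM in D (3.95 ± 0.88, adjusted p = 0.0402). In each of these the D libraries lay above uncultured MP too. Klf3 and Klf9 behaved otherwise, since uncultured MP already held 17.0 and 12.2 FPKM. Klf3 stood at 0 and 0.32 FPKM in N and 15.1 and 6.86 FPKM in D (adjusted p = 0.0594), and Klf9 at 1.68 and 3.39 FPKM in N and 14.3 and 26.7 FPKM in D (adjusted p = 0.162). Sox21, Sox13, Klf3 and Klf9 stood under 10 FPKM in both N libraries and passed the 10 FPKM filter through D. That favours rises in the counts of the Sox and Klf list. Mxd4, which competes with Myc for its partner Max, stood at 13.4 and 17.4 FPKM in N and at 133 and 86.8 FPKM in D (2.73 ± 0.52, adjusted p = 0.0241).

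Of 6 measured epithelial junction genes 4 were 4-fold higher at both days, and of 17 tested 4 rose and none fell, against 1 without the day 2 pair and 0 without the day 4 pair. The shares over all genes were 4.03% of those measured (4-fold higher at both days) and 2.73% of those tested (rises). Jup, the junction protein plakoglobin, was listed at 0 in N and stood at 20.9 and 38.8 FPKM in D (adjusted p = 0.00553). Perp, a desmosomal membrane protein, stood at 6.97 and 0 FPKM in N and at 78.7 and 55.0 FPKM in D (4.56 ± 0.71, adjusted p = 0.0108). Cdh1 and Epcam, the defining adhesion genes of epithelium, stood at 0.98 and 0.29 FPKM (Cdh1) and at 0.95 and 2.29 FPKM (Epcam) in D. Neither passed, with an adjusted p of 0.946 for Cdh1 and 0.337 for Epcam.

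Of 19 tested mesenchymal and matrix genes 2 rose and 2 fell, beside 2.73% and 3.74% of all tested genes. Timp1, an inhibitor of matrix proteases, was listed at 0 in N and stood at 21.8 and 41.8 FPKM in D (adjusted p = 0.00544). Igfbp7, a secreted growth factor binding protein, was the mirror image, at 23.6 and 22.2 FPKM in N and listed at 0 in D (adjusted p = 0.0243). Vim, vimentin, stood at 926 and 2588 FPKM in N and at 1682 and 1420 FPKM in D (adjusted p = 1). The list as a whole showed no common direction, with a median difference of 0.78 and 0.15.

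Signalling genes of development moved one by one. Id3, an inhibitor of helix-loop-helix factors that BMP signals turn on, stood at 23.1 and 73.7 FPKM in N and at 293 and 757 FPKM in D (3.48 ± 0.60, adjusted p = 0.0166). Its relative Id1 stood at 506 and 493 FPKM in N and at 152 and 315 FPKM in D (adjusted p = 0.151). Acvr1, a type I receptor for BMPs and activins, stood at 2.01 and 2.75 FPKM in N and at 29.6 and 34.5 FPKM in D (3.30 ± 0.50, adjusted p = 0.0101). Of 21 tested TGF-beta and BMP genes 3 rose and none fell, beside 2.73% and 3.74% of all tested genes. In the WNT list Tcf7l2, a nuclear partner of beta-catenin, stood at 1.16 and 1.60 FPKM in N and 19.7 and 17.7 FPKM in D (3.05 ± 0.67, adjusted p = 0.0382), and Ctnnb1, beta-catenin itself, at 122 and 156 FPKM in N and 292 and 364 FPKM in D (1.23 ± 0.25, adjusted p = 0.0288). Those 2 were the rises among 13 tested, beside 2.73% of all tested genes. No member of the TGF-beta and WNT lists passed when either MP pair was left out.

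Ly6a, the Sca-1 antigen that is used to sort stem cells away from myeloid progenitors, was listed at 0 in both N libraries and stood at 0.89 FPKM in uncultured MP and at 30.8 and 53.4 FPKM in D (adjusted p = 0.00119). Cd34, a progenitor antigen, moved the other way, at 132 and 41.4 FPKM in N, 14.3 FPKM in 2D and 0 in 4D (−4.26 ± 0.82, adjusted p = 0.0249). Mecom, a stem cell transcription factor, was listed at 0 in N and stood at 6.64 and 6.27 FPKM in D (adjusted p = 0.0232). Of 25 tested stem cell genes these 3 passed, beside 6.47% of all tested genes. The imprinted gene Mest stood at 1.51 and 0.063 FPKM in N and at 100 and 46.8 FPKM in D (5.41 ± 0.92, adjusted p = 0.0155).

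Among growth arrest and p53-related genes Gadd45g stood apart. This stress sensor stood at 2.15 and 1.65 FPKM in N and at 209 and 381 FPKM in D (6.62 ± 0.82, adjusted p = 0.00478). Its relative Gadd45a stood at 57.2 and 39.1 FPKM in N and at 8.21 and 12.3 FPKM in D (adjusted p = 0.0902). Cdkn1a, the cell cycle inhibitor p21, stood at 29.9 and 121 FPKM in N and at 217 and 233 FPKM in D (adjusted p = 0.0813). Xpc, a DNA damage recognition protein, fell from 48.2 and 19.9 FPKM to 6.75 and 5.49 FPKM (−2.18 ± 0.50, adjusted p = 0.0428). Of 25 tested members Gadd45g and Xpc were those that passed, beside 6.47% of all tested genes. In the Bcl2 family 1 of 9 tested genes rose and 1 fell, beside 2.73% and 3.74% of all tested genes. Bok, a member of the Bcl2 family that promotes cell death, stood at 1.10 and 4.71 FPKM in N and at 10.4 and 99.9 FPKM in D (3.29 ± 0.62, adjusted p = 0.0225). Bcl2l1, whose main product protects from cell death, stood at 30.8 and 30.1 FPKM in N and at 4.43 and 9.18 FPKM in D (−2.08 ± 0.49, adjusted p = 0.0492), a call that was lost under every alternative setting other than the filter at a mean of 5 FPKM.

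The machinery of growth and division showed no agreeing difference of 4-fold at both days. Of 31 measured DNA replication genes, 29 mitosis genes and 29 ribosome biogenesis genes, 0 were 4-fold higher or lower at both days, and limma called 0 of them, with 1, 2 and 0 at an unadjusted p under 0.05. Their median differences were 0.33 and −0.32 for replication, −0.31 and 0.44 for mitosis and −0.25 and 0.51 for ribosome biogenesis. These medians changed sign between the days. Ncl, nucleolin, stood at 75.0 and 43.8 FPKM in N and 88.7 and 138 FPKM in D (adjusted p = 0.302). Of 30 tested genes of oxidative phosphorylation 1 rose, Atp5b, the beta subunit of ATP synthase, from 3375 and 3695 FPKM to 5682 and 6981 FPKM (0.83 ± 0.15, adjusted p = 0.0211). With the 4 MP libraries alone 0 of this list passed, and with quantile normalization 3 rose. Of the 30, 10 were at an unadjusted p under 0.05. The median difference of the 28 measured members was 0.31 and 0.46, beside 0.03 and 0.10 over all measured genes. Asns, the asparagine synthetase that ATF4 induces, rose from 162 and 134 FPKM to 443 and 719 FPKM (1.93 ± 0.33, adjusted p = 0.0154) as the only one of 16 tested members of its list. In the glycolysis list Slc16a3, a lactate exporter, fell from 13.4 and 12 FPKM to 2.00 and 0.21 FPKM (−2.84 ± 0.66, adjusted p = 0.0454). Among 17 cholesterol synthesis genes and 29 DNA methylation and chromatin enzymes that were tested, 0 passed in limma, with 2 and 6 at an unadjusted p under 0.05. Of all 12254 tested genes 2602 were at an unadjusted p under 0.05, the share to set beside each such count in this paragraph.

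Of 15 tested interferon genes 1 fell, and of 14 tested antigen processing genes 1 fell, beside 3.74% of all tested genes. Ifitm1, an interferon-induced membrane protein, stood at 470 and 434 FPKM in N and at 105 and 11.3 FPKM in D (−3.64 ± 0.75, adjusted p = 0.0293), while the interferon list as a whole had a median difference of 0.02 and −1.35. Psmb10, a subunit of the immunoproteasome, stood at 207 and 229 FPKM in N and at 74.7 and 33.6 FPKM in D (−2.10 ± 0.40, adjusted p = 0.0237). Psmb8 and Psmb9, the other catalytic subunits, stood at 646 and 780 FPKM (Psmb8) and at 52.8 and 117 FPKM (Psmb9) in N. In D they stood at 203 and 13.6 FPKM (Psmb8) and at 16.6 and 0 FPKM (Psmb9), with an adjusted p of 0.0823 for Psmb8 and 0.108 for Psmb9. All 3 subunits were lower in D at both days and lowest in 4D.

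The change on induction was tested for a difference between days, and no gene passed (0 of 12254, 0%), with 315 genes at an unadjusted p under 0.05 and the smallest adjusted p at 1. The spread for this test comes from LT-HSC against ST-HSC. In simulated data it found 0% of genes shifted by 2 in log2, 24% of those shifted by 4 and 54% of those shifted by 6. Genes that differ between days can therefore be missed. Several of the genes with the smallest p were seen in 1 N library. Cma1 and Gzmb were at 737 and 525 FPKM in 4N and 0 in the other 3 cultured libraries (unadjusted p = 6.41e-04 and 8.30e-04). Epx, the eosinophil peroxidase, was at 82.6 FPKM in 2N and 0 in the other 3 (unadjusted p = 0.00532). Plac8, a small protein abundant in myeloid cells, shows the other kind, a deepening loss, with 3659 and 2232 FPKM in N and 187 and 1.53 FPKM in D (difference between days −5.50, unadjusted p = 0.00234). Of the measured genes 506 were 4-fold on day 2 without being so on day 4, and 716 on day 4 without being so on day 2. In opposite directions 4-fold at both days were 21 genes.

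Whether MP responded otherwise than the stem cells was tested as an interaction, and 0 of 12254 genes passed (0%), with 1018 at an unadjusted p under 0.05 and the smallest adjusted p at 0.207. In simulated data this test found 24% of genes shifted by 2 in log2 and 66% of those shifted by 4, so differences can be missed. The smallest adjusted p belonged to Prtn3 and Elane. Prtn3 differed by −9.77 and −10.13 in MP, against −4.91 to −6.51 in the 4 stem cell pairs (MP minus stem cells −4.24 ± 0.50, unadjusted p = 1.86e-05). Elane differed by −10.47 and −10.27 in MP, against −1.29 to −5.20 in the stem cells (−7.62 ± 1.0, unadjusted p = 4.08e-05). In N Prtn3 stood at 102 to 4277 FPKM and Elane at 3.12 to 137 FPKM in the stem cells, and the part of these lower N levels in the difference was not tested. Without the ST-HSC day 4 pair Elane passed alone (−8.44, adjusted p = 0.0145). The D levels of Prtn3 were 1.44 to 70.5 FPKM in stem cells and 10.9 to 16.5 FPKM in MP, so the cell types overlapped after induction.

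**Figure D5:**
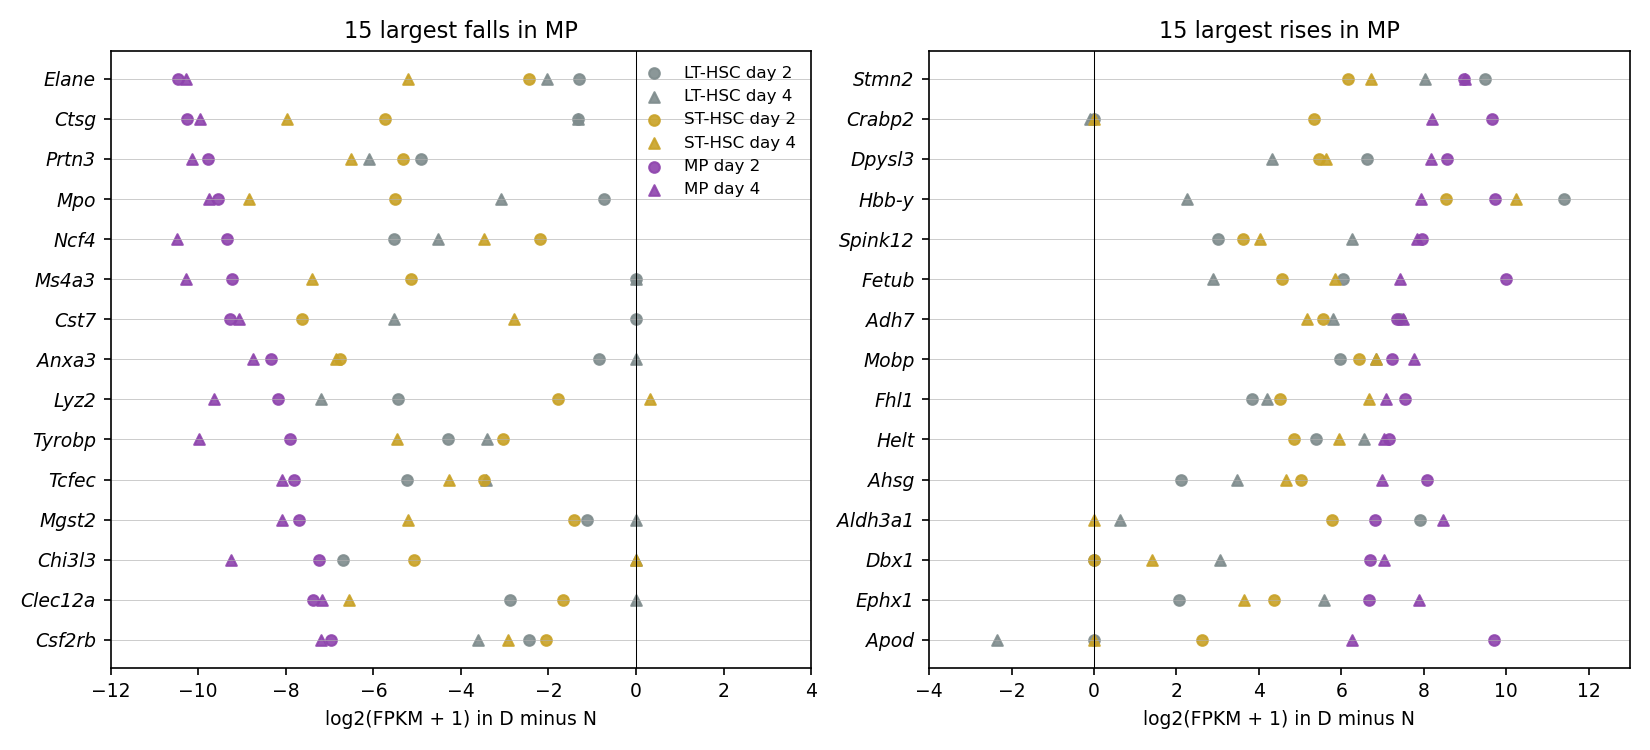
D minus N difference of log2(FPKM + 1) (x axis) for the 15 largest agreeing falls (left) and rises (right) of MP, with 1 point for each cell type and day. The genes were ranked in MP, whose points lie farthest from 0 for all 15 falls, while for Stmn2 and Mobp the stem cell points lie beside them; for Hbb-y the stem cells span 2.25 to 11.40 and enclose MP.

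Among the rises with the smallest p for a difference from stem cells, Crabp2 and Apod lay highest in MP. Crabp2 stood at 802 and 291 FPKM in MP D libraries and at 0 to 39.7 FPKM in those of the stem cells (unadjusted p = 0.00106, adjusted p = 0.365). Apod stood at 832 and 75.5 FPKM in MP and at 0 to 5.16 FPKM in stem cells (unadjusted p = 5.03e-04, adjusted p = 0.325). Pitrm1, a mitochondrial peptidase, stood at 44.0 and 25.1 FPKM in MP N and at 340 and 162 FPKM in MP D, against 44.4 to 68.6 FPKM (N) and 56.0 to 83.3 FPKM (D) in the stem cells (unadjusted p = 1.09e-04, adjusted p = 0.231). In all 3 the MP D libraries lay above every stem cell library, yet none passed over all genes. Stmn2 is an example of a shared rise, with 105 to 714 FPKM in the D libraries of the stem cells and 0 to 5.34 FPKM in their N libraries. Hbb-y reached 6887 FPKM in the stem cells, above both MP D libraries.

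Lists of agreeing genes were compared over the same 8656 genes. LT-HSC had 211 genes 4-fold higher at both days (2.44%) and 295 lower (3.41%), and ST-HSC had 199 higher (2.3%) and 115 lower (1.33%). Of the 349 higher in MP, 119 were also higher in LT-HSC (34.1% of the MP genes and 56.4% of the LT-HSC genes) and 115 in ST-HSC (33.0% and 57.8%). Of the 472 lower in MP, 160 were also lower in LT-HSC (33.9% and 54.2%) and 93 in ST-HSC (19.7% and 80.9%). Genes were kept by their level in MP, which favours MP in these counts. The median difference of the 349 was 3.66 in MP, 1.73 in LT-HSC and 1.97 in ST-HSC, and that of the 472 was −4.02 in MP, −2.04 in LT-HSC and −1.32 in ST-HSC.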

How the data were processed

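RNA of 18 libraries was sequenced, and the deposited table holds 1 FPKM value per gene and library. The authors made the FPKM with TopHat and Cufflinks on mm9, per the submitters' processing notes. Versions, annotation and depth: not given in the sources used here. Low FPKM values were no whole multiples of a step (at most 1.50% of ratios in one 1% bin), so counts could not be recovered. Of 36818 entries, 158 symbols on several entries were summed.

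Genes with a mean of at least 1 FPKM over the 12 cultured blood libraries were tested as log2(FPKM + 1) in limma 3.58.1 under R 4.3.3 (moderated by empirical Bayes with trend and robust settings, two-sided, Benjamini-Hochberg over all genes), in scripts tested on simulated data. MP against stem cells and day 4 against day 2 used the same libraries. For D against N in MP, p-values rest on the spread between days of single libraries, pooled over the 3 cell types. For MP against stem cells the spread also holds differences between LT-HSC and ST-HSC. For day 4 against day 2 it comes from LT-HSC against ST-HSC alone. Named genes were the 4 factors, the 15 largest agreeing rises and falls by the smaller of the 2 differences (gene models, pseudogenes and symbols on several entries passed over), up to 6 measured members of each list by mean difference, the 8 leading genes each way of the other comparisons and the 8 largest opposite differences. Genes named beyond these were chosen after their values were seen, and a few genes are not reported here. The members and the 38 lists were chosen with earlier results of these data known. Older symbols were matched through RefSeq, and 830 of 833 list genes were found. Added constants, filters, scalings, thresholds and left-out pairs were the alternatives. Other steps ran in Python 3.11.15 (pandas 2.3.3; numpy 2.4.6; figures by matplotlib 3.10.9).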

Additional observations from a re-analysis of the deposited data

Results flagged for a closer look

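Of the genes named here 8 were at least 4-fold higher in D on one day and at least 4-fold lower on the other, those with the largest smaller difference out of 21 such genes. Their differences of log2(FPKM + 1), day 2 then day 4, were 3.05 and −4.48 for Tmem106a, 2.93 and −3.17 for Tex15, 2.71 and −3.30 for Olfm1, and 3.77 and −2.63 for Epsti1. They were −3.74 and 2.54 for Lama5, −2.46 and 3.31 for Zfp239, 4.08 and −2.29 for Ly96, and 3.53 and −2.26 for Bbs2. None of them reached 40 FPKM in any of the 4 MP libraries. In limma the difference between days had an adjusted p of 1 for each of these 8 genes.

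Another 3 genes moved one way in both MP pairs and the other way in all 4 stem cell pairs. The mean difference in MP was −1.41 for Mlx, a dimer partner in glucose sensing. It was 2.48 for Col1a2, a chain of type I collagen, and 2.25 for Rcor2, a co-repressor that binds the demethylase LSD1. Rcor2 stood at 6.61 and 3.18 FPKM in MP N and at 30.6 and 21.9 FPKM in MP D, and its differences in the stem cells were −0.46 to −1.19. In limma the difference between MP and stem cells had an adjusted p of 0.371 for Mlx, 0.432 for Col1a2 and 0.365 for Rcor2.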

How the results depend on the processing

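The limma count of 793 genes for D against N in MP became 488 with 0.1 added in place of 1 and ranged from 24 to 666 when pairs were left out. Under the other settings it was 538 to 812. Leaving out 1 MP pair leaves 1 MP library on each side, which is then assumed to vary like the stem cells. The count for MP against stem cells stayed at 0 apart from 1 gene without the ST-HSC day 4 pair (range 0 to 1), and the count for day 4 against day 2 stayed at 0 under each setting run. For the day comparison no MP pair could be left out, since both days are needed.

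The 821 genes agreeing at both days became 1726 at 2-fold, 457 at 8-fold, 343 with at least 50 FPKM and 411 with 5 added. On day 2 the 1348 genes became 3174 at 2-fold, 762 at 8-fold, 2036 with at least 1 FPKM, 494 with at least 50 FPKM and 744 with 5 added. On day 4 the 1558 became 3206, 1013, 549 and 922 at 2-fold, 8-fold, 50 FPKM and 5 added.

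Of 97 named results past the threshold, 0 changed direction under any setting, while 29 lost the call with 0.1 added, 27 without a filter, 59 without the MP day 2 pair and 81 without the MP day 4 pair. Of the 15 largest rises 13, and of the 15 largest falls 14, kept the call under every setting other than left-out pairs. Values of 14 genes that had not passed changed sign. With 1 MP pair left out, the value of a gene is its difference on the other day. In all 14 genes the differences of the 2 days had opposite signs. Over left-out pairs these genes ranged as follows: Dusp2 −4.51 to 0.065, Dusp5 −3.35 to 0.77, Gsk3b −0.66 to 0.58, Hmmr −0.15 to 1.69, Irf1 −2.50 to 0.69, Irf9 −0.58 to 0.43, Klf4 −1.16 to 0.74, Myc −2.78 to 0.39, Pmvk −0.92 to 0.0019, Rab27b −2.12 to 1.93, Rrp9 −1.45 to 0.17, Sesn2 −0.028 to 1.73, Vpreb1 −4.46 to 0.23, Zfp36 −3.07 to 0.46. Rab27b was 0.18 with 0.1 added and Gsk3b 0.00495 with upper-quartile scaling.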
